A study of Mus musculus with 12 samples.

Results

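The nuclear genes that encode subunits of the 5 complexes of the mitochondrial respiratory chain and ATP synthase were described in mouse CD4+ T cells, helper T lymphocytes, of 2 genotypes and at 2 times after activation. The members were chosen by gene symbol (Nduf for complex I, Sdh for II, Uqcr and Cyc1 for III, Cox4 to Cox8 for IV, Atp5 for V), with pseudogene symbols left out. They also had to have at least 10 counts in 3 or more of the 12 libraries. Of 85 matching symbols 80 met the count limit, among 32698 rows with a gene symbol and 13196 genes tested. They comprised 36 genes of complex I, 4 of II, 9 of III, 14 of IV and 17 of V. The rule itself used no measured difference between groups, but it was set with earlier results of these data known. The naïve cells had received anti-CD3 and anti-CD28 antibodies, which engage the T cell receptor and its costimulator. Groups of 3 libraries each were wild type (WT) or Keap1 knockout (KKO), with RNA taken at 24 h or 48 h. KEAP1 holds the transcription factor NRF2 low by directing it to the proteasome. The way in which Keap1 was deleted, the strain and the age of the mice are not given in the sources used here. Whether each replicate is a separate mouse is not given either. Every group held a library high in the X-linked transcript Xist alone and another high in Y-linked transcripts alone. The replicates of a group were therefore not all repeats of the same source of cells. The p-values rest on the spread among libraries, where differences in sex-linked signal and technical variation were not separated.

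Complex I (NADH dehydrogenase) and complex II (succinate dehydrogenase) pass electrons to coenzyme Q, complex III passes them on to cytochrome c, and complex IV passes them to oxygen. Complexes I, III and IV pump protons across the inner membrane, and complex V uses the proton gradient to make ATP. Complexes I, III, IV and V combine nuclear subunits with subunits encoded by mitochondrial DNA, which were not analysed here, whereas complex II is wholly nuclear. T cells build up mitochondria after activation, and respiration takes part in their growth and proliferation.

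Keap1 was measured at 106 to 109 CPM (counts scaled to the library total) in the 3 WT libraries and 15.7 to 17.5 CPM in the 3 KKO libraries at 24 h. At 48 h it lay at 122 to 132 and 20.2 to 22.5 CPM, so the targeted gene went with the labels in all 12 libraries. Nqo1, a standard NRF2 target, was at 0.250 to 0.398 CPM in WT and 4.34 to 7.07 CPM in KKO libraries. Totals ran from 17786532 to 32607675 counts per library. The sum of 6 CD4+ T cell markers, each present in every library, was 1459 to 1569 CPM in WT and 1378 to 1397 CPM in KKO at 24 h, with the KKO libraries all below WT. At 48 h it was 1463 to 1512 and 1419.7 to 1542 CPM, with overlap. The sum of 2 CD8 markers was 7.04 to 8.11 CPM in WT and 9.36 to 10.8 CPM in KKO at 24 h, and 8.32 to 10.6 and 12.7 to 13.4 CPM at 48 h. The sum of 5 B cell markers was 8.75 to 11.8 CPM in WT and 17.7 to 26.04 CPM in KKO libraries at 24 h, and 11.3 to 14.3 and 22.03 to 32.3 CPM at 48 h, with none of the 5 at 0. The sum of 4 macrophage markers stayed between 0.0884 and 0.862 CPM, with Csf1r at 0 in most libraries. Xist occurred together with Y-linked transcripts in the first KKO library at 24 h and the third at 48 h, whereas the other 10 libraries held one or the other at high level. In RNA from whole cultures, fewer cells of a type and less RNA per cell cannot be told apart.

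Most members were abundant. Per kilobase of the annotated principal transcript, Atp5b, the catalytic beta subunit of ATP synthase, reached 827 CPM in WT at 24 h and 986 CPM in KKO at 48 h. Of the 80 members, 77 had at least 10 counts in every library. The exceptions were Cox6a2 and Cox7a1, isoforms of complex IV subunits known from heart and skeletal muscle, and Cox6b2, an isoform known from testis. Cox6a2 had 1, 0 and 0 counts in WT at 24 h, 2, 0 and 3 in KKO at 24 h, 7, 15 and 9 in WT at 48 h, and 17, 8 and 14 in KKO at 48 h. Cox7a1 had 1, 0 and 1 counts, then 2, 1 and 6, then 11, 9 and 22, and then 30, 17 and 26 in the same order. Both genes were higher in all 48 h libraries than in any 24 h library of the same genotype. Just outside the limit lay Cox4i2, an isoform of the subunit COX4, with 1, 1 and 2 counts in WT at 24 h, 0, 2 and 1 in KKO at 24 h, 8, 5 and 5 in WT at 48 h, and 23, 6 and 21 in KKO at 48 h. Cox7b2, Cox8b, Cox8c and Ndufa4l2 were also under it. Since the low genes passed through their 48 h libraries, counts over time are given with and without them.

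The summed level of each complex changed little between groups, with complex IV moving most. The 14 complex IV genes summed to 1268, 1428 and 1406 CPM in WT at 24 h, 1414, 1271 and 1345 in KKO at 24 h, 1511, 1559 and 1621 in WT at 48 h, and 1801, 1651 and 1698 in KKO at 48 h. All 48 h libraries were therefore above all 24 h libraries, and the KKO libraries at 48 h were above the WT ones. From 24 h to 48 h the sum rose 1.14-fold in WT and 1.28-fold in KKO. For complex I the ratios were 1.04 and 1.18, for III 0.979 and 1.06, for V 1.05 and 1.11, and for II 0.922 and 0.970. KKO over WT at 48 h, the ratio was 1.10 for complexes I and IV, 1.06 for III, 1.04 for V and 1.02 for II.

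**Figure D1:**
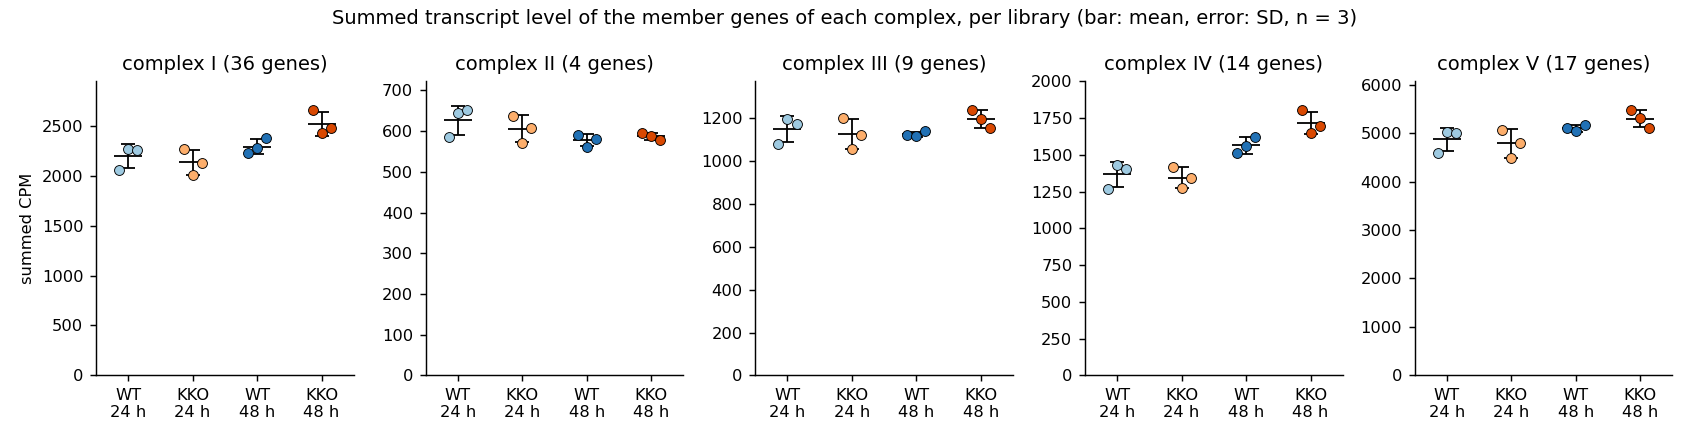
Summed level in CPM (y axis from 0) of the member genes of complexes I to V in each library, by genotype and time (x axis); points are libraries, the bar is the mean and the error bar the SD (n = 3). Complex IV sums at 48 h (1511 to 1801 CPM) lie above those at 24 h (1268 to 1428 CPM), and complex II sums span 562 to 651 CPM.

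In WT cells, 20 of the 80 members were higher at 48 h than at 24 h and 13 were lower. The call was an adjusted p under 0.05 in edgeR's quasi-likelihood test with Benjamini-Hochberg adjustment over all genes tested. Of all genes tested 31% were higher and 29.7% lower, and of the members 25% were higher. Without the 3 low-count genes the counts were 17 and 13 of 77. The median log2 change of the members was 0.04, beside 0.00 over all genes. In KKO cells, 45 members were higher and 9 lower (42 and 9 of 77), against 34.4% and 33.4% of all genes, with a median of 0.19. The members called higher in KKO made up 56.2% of the 80. The 2 time comparisons share no library, and the members' changes in WT and KKO had a Pearson r of 0.95 over 80 genes, which share depth and library and are not independent. The r was 0.94 over the 77 members and 0.87 over all 13196 genes tested. Both genotypes called 28 members in the same direction, or 25 of the 77, which is 32.5% beside 52.8% of all genes. Uqcr11 was called in opposite directions, as were 60 of all genes.

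**Figure D2:**
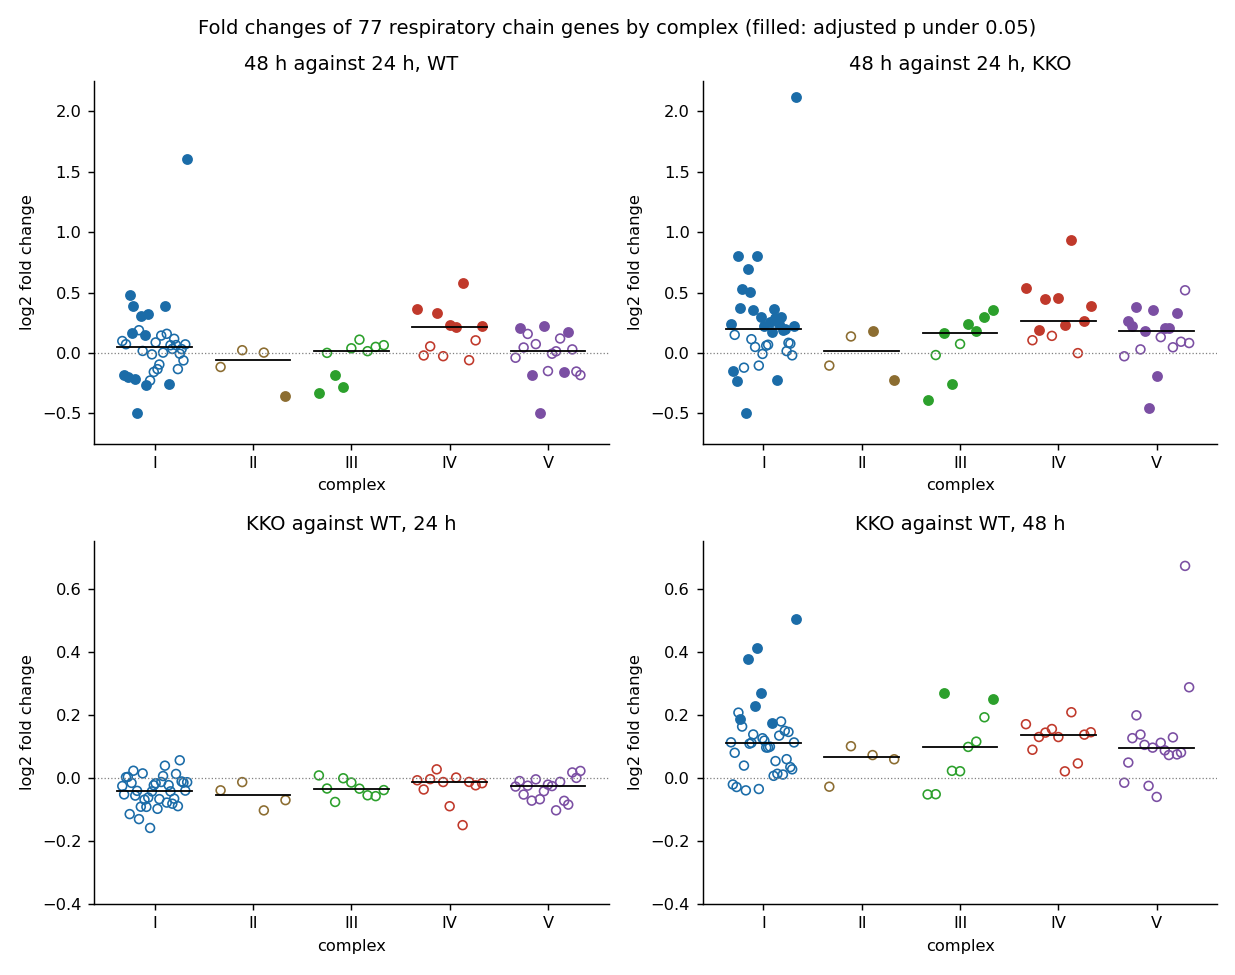
Log2 fold change (y axis) of the 77 members with at least 10 counts in every library, grouped by complex (x axis), in 4 comparisons; each circle is a gene, filled where the adjusted p was under 0.05, and the line is the median of the complex. Filled circles are absent for KKO against WT at 24 h, and at 48 h they are 7 genes of complex I and 2 of complex III, all above 0.

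Among the 77 members with at least 10 counts in every library, the largest rise was that of Ndufv3 in complex I. Its 7 core subunits carry the flavin and iron-sulfur clusters, and the other 29 genes encode accessory subunits that support assembly and stability. In WT, 8 of 36 genes were higher and 6 lower at 48 h, all 8 higher ones accessory. In KKO 20 were higher and 4 lower, including 3 higher and 1 lower core subunit.

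Ndufv3 (chr17:31520115-31531326, GRCm38) encodes an accessory subunit of the NADH-oxidising module, made in short and long isoforms that gene counts do not separate. Its level was 37.8, 39.95 and 37.9 CPM in WT at 24 h, 40.2, 32.9 and 41.3 in KKO at 24 h, 100.6, 119 and 132 in WT at 48 h, and 190.2, 133 and 175 in KKO at 48 h. Every 48 h library was above every 24 h library. The gene rose by 1.61 ± 0.14 (log2, SE) in WT, or 3.04-fold (adjusted p = 8.95e-07, edgeR), and by 2.12 ± 0.14 in KKO, or 4.35-fold (adjusted p = 7.05e-08). Its promoter window, 250 bases before to 50 after the start, is shown as that of the member with the largest change among the 77; RefSeq (GRCm38.p6) places it at chr17:31519865-31520164 on the plus strand. It held no match to the 4 motifs searched, described further on.
Ndufv3: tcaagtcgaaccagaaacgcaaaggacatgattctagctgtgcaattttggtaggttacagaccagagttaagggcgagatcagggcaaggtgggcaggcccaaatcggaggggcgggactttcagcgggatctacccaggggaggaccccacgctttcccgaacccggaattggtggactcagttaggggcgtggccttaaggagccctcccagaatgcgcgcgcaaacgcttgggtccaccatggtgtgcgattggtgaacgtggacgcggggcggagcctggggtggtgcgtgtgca

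Ndufa13 (chr8:69894163-69902558), the accessory subunit also known as GRIM-19, was measured at 68.1, 76.0 and 74.8 CPM in WT and 73.3, 62.0 and 66.7 in KKO at 24 h. At 48 h it lay at 94.3, 100.9 and 111 in WT and 126, 110.0 and 117 in KKO, above all 24 h libraries. The rise was 1.40-fold in WT (adjusted p = 7.35e-05) and 1.75-fold in KKO (adjusted p = 3.92e-07) by edgeR's test. Ndufa3 rose 1.31-fold and Ndufa7 1.24-fold in WT, both accessory subunits, and 1.44-fold and 1.42-fold in KKO. Ndufc1 rose 1.31-fold and 1.28-fold. In the other direction, Ndufa5 (chr6:24518662-24527690), an accessory subunit of the arm that reduces coenzyme Q, was at 45.7, 51.6 and 49.7 CPM in WT at 24 h and 36.7, 34.6 and 32.8 at 48 h. In KKO it went from 51.4, 43.9 and 47.4 to 31.9, 35.4 and 33.9 CPM. The 2 times did not overlap in either genotype, and the fall was 1.41-fold in both (adjusted p = 3.69e-05 in WT and 2.88e-05 in KKO, edgeR). Ndufs1, the largest core subunit, fell 1.20-fold in WT and 1.17-fold in KKO. Ndufb10 fell 1.20-fold in WT, and in KKO its change of 0.05 on the log2 scale was not called. Ndufa4, which carries a complex I name but is known as a subunit of complex IV, fell 1.16-fold in WT.

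The 4 genes of complex II encode the flavoprotein Sdha, the iron-sulfur protein Sdhb and the membrane anchors Sdhc and Sdhd. Only Sdhd was called in WT. It was at 110.0, 123 and 123 CPM in WT at 24 h, 121, 108 and 110.2 in KKO at 24 h, 94.8, 90.5 and 93.8 in WT at 48 h, and 99.4, 99.9 and 91.2 in KKO at 48 h. The levels at the 2 times did not overlap, and the fall was 1.28-fold in WT (adjusted p = 0.000182) and 1.17-fold in KKO (adjusted p = 0.00513) by edgeR's test. Its partner anchor Sdhc changed by 0.00 in WT and rose by 0.18 on the log2 scale in KKO (adjusted p = 0.0289). Sdha and Sdhb were not called, with log2 changes of -0.12 and 0.02 in WT.

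In complex III, 3 of 9 genes were lower and 0 higher in WT, while 5 were higher and 2 lower in KKO. Cyc1, the cytochrome c1 subunit that hands electrons to cytochrome c, was at 166, 181 and 180 CPM in WT at 24 h, 190, 167 and 172 in KKO at 24 h, 141, 138 and 140 in WT at 48 h, and 132, 150 and 122 in KKO at 48 h. It fell 1.26-fold in WT (adjusted p = 0.00129) and 1.31-fold in KKO (adjusted p = 0.000261). Uqcrb, a small subunit near the quinone site, fell 1.22-fold and 1.20-fold. Uqcrq and Uqcrh, small subunits, rose 1.28-fold and 1.23-fold in KKO, where the core protein Uqcrc2 rose 1.18-fold. Their WT changes were 0.06, 0.05 and 0.11 on the log2 scale and were not called.

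Of the 14 genes grouped under complex IV by symbol, 0 were called lower in either genotype, whereas Ndufa4, grouped under complex I, fell in WT as given above. In WT 9 of the 14 rose (6 of 11 without the low-count genes), and in KKO 11 of 14 (8 of 11). Cox7a2l (chr17:83501917-83514333), known as a factor that joins complexes III and IV into supercomplexes, was at 100.5, 111 and 111 CPM in WT at 24 h, 100.8, 94.6 and 94.9 in KKO at 24 h, 145, 163 and 173 in WT at 48 h, and 196, 157 and 201 in KKO at 48 h. The ranges at the 2 times were apart. The gene rose 1.49-fold in WT (adjusted p = 5.38e-05) and 1.91-fold in KKO (adjusted p = 3.94e-07, edgeR). Cox4i1 (chr8:120668225-120674209), the common isoform of a subunit needed for assembly, was at 178, 192 and 186 CPM in WT at 24 h, 198, 170.0 and 185 in KKO at 24 h, 232, 232 and 250 in WT at 48 h, and 282, 256 and 264 in KKO at 48 h. It rose 1.28-fold in WT and 1.45-fold in KKO. Cox6a1, the common isoform of COX6A, rose 1.26-fold and 1.36-fold, Cox6c 1.17-fold and 1.37-fold, and Cox8a 1.17-fold and 1.31-fold. Cox7a2 rose 1.16-fold and 1.17-fold. Cox5a, Cox6b1 and Cox7b were called in neither genotype.

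The low-count isoforms of complex IV met the count limit through their 48 h libraries, so their ratios are a description and add nothing to the counts of the complex. The ratio of 48 h over 24 h from pooled counts was 29.9 for Cox7a1 in WT (95% exact interval 7.78 to 255) and 10.4 in KKO (5.20 to 23.7). For Cox6a2 it was 10.03 in KKO (3.95 to 32.6), and in WT, where a single count was seen at 24 h, 44.2 (7.36 to 1800). For Cox6b2, with 5, 15 and 6 counts in WT and 6, 1 and 7 in KKO at 24 h, then 12, 27 and 24 and 23, 8 and 19 at 48 h, it was 3.45 in WT and 4.59 in KKO. These intervals cover counting error only. Even at 48 h Cox7a1 made up 0.769% of the summed CPM of Cox7a1 and Cox7a2 in WT and 1.37% in KKO, and Cox6a2 0.299% and 0.356% of that of Cox6a1 and Cox6a2.

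**Figure D3:**
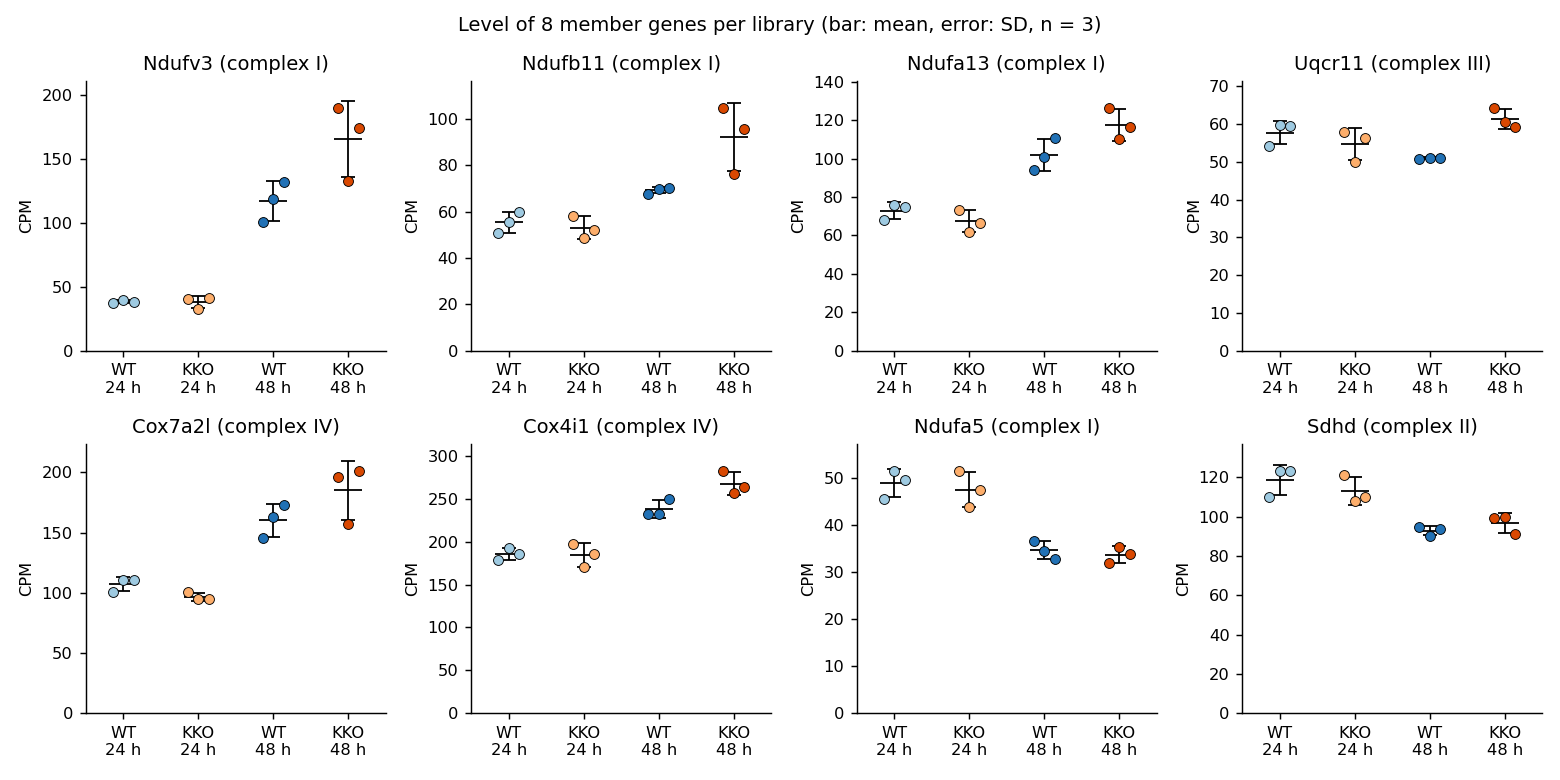
Level in CPM (y axis from 0) of 8 member genes in each library, by genotype and time (x axis); points are libraries, the bar is the mean and the error bar the SD (n = 3). Ndufv3 goes from 32.9 to 41.3 CPM at 24 h to 100.6 to 190.2 CPM at 48 h, whereas Ndufa5 and Sdhd are lower at 48 h in every library.

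In complex V, 3 of 17 genes rose and 3 fell in WT, and 8 rose and 2 fell in KKO. Atp5b rose 1.15-fold and 1.20-fold, and Atp5l, which encodes subunit g of the membrane sector, 1.13-fold and 1.26-fold. Atp5d, the delta subunit of the central stalk, rose 1.30-fold in KKO. Atp5e, the epsilon subunit of the same stalk, fell 1.13-fold in WT. The genes Atp5g1, Atp5g2 and Atp5g3 encode the same mature subunit c, the unit of the rotating ring, behind different targeting sequences, and they moved apart.

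Atp5g1 was at 161, 165 and 170.0 CPM in WT and 165, 151 and 156 in KKO at 24 h, and at 119.9, 116 and 115 in WT and 117, 119 and 107 in KKO at 48 h. It was lower in all 48 h libraries, by 1.41-fold in WT (adjusted p = 3.24e-06) and 1.37-fold in KKO (adjusted p = 5.02e-06, edgeR). Atp5g2 was at 161, 173 and 163 CPM in WT and 174, 151 and 158 in KKO at 24 h, and at 185, 193 and 201 in WT and 218, 196 and 205 in KKO at 48 h. It was higher in all 48 h libraries, by 1.17-fold in WT (adjusted p = 0.00827) and 1.28-fold in KKO (adjusted p = 0.000171). Atp5g3 fell 1.14-fold in KKO with overlapping libraries (adjusted p = 0.0464), and its log2 change of -0.15 in WT was not called. Within the summed CPM of the 3 genes, the share of Atp5g1 went from 27.6 ± 0.745% (SD, n = 3) to 21.2 ± 0.292% in WT and from 27.1 ± 0.501% to 20.8 ± 0.253% in KKO. The share of Atp5g2 went from 27.7 ± 0.911% to 35.1 ± 1.74% in WT and from 27.7 ± 0.215% to 37.4 ± 2.78% in KKO. Each of these 4 differences had a two-sided exact permutation p of 0.1, the smallest that 3 against 3 libraries can give. The share of Atp5g3 was 44.7 ± 1.02% and 43.7 ± 1.47% in WT, and 45.3 ± 0.398% and 41.8 ± 2.73% in KKO. Genotypes at the same time overlapped in the shares of Atp5g2 and Atp5g3. In the share of Atp5g1 they overlapped at 24 h. At 48 h the Atp5g1 share was 20.5 to 20.96% in KKO, just below the 20.98 to 21.5% in WT (exact permutation p = 0.1). The promoter windows are shown because the genes give one protein and changed in different directions. RefSeq (GRCm38.p6) places them at chr11:96075582-96075881 for Atp5g1, chr15:102670998-102671297 for Atp5g2 and chr2:73911277-73911576 for Atp5g3, all on the minus strand. The Atp5g3 window lies within the annotated gene, which extends to 73912464, so it belongs to an internal start. Atp5g1 is annotated up to 96075694, also somewhat ahead of the start used for its window. Capitals mark the match to the NRF1 motif GCGCATGCG, found in Atp5g2 on both strands in overlapping positions (bases 209 to 218, with transcription starting at base 251).
Atp5g1: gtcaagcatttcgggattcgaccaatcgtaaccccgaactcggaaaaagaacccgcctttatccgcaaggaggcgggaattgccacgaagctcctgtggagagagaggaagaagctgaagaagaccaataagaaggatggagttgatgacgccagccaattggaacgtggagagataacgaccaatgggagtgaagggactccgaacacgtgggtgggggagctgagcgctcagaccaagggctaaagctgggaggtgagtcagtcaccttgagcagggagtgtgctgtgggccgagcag
Atp5g2: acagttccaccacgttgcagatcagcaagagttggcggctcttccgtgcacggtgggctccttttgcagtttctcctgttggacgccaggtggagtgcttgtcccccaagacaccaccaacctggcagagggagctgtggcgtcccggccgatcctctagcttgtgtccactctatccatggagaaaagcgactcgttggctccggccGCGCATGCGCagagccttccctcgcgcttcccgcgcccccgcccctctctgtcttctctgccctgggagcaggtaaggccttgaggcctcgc
Atp5g3: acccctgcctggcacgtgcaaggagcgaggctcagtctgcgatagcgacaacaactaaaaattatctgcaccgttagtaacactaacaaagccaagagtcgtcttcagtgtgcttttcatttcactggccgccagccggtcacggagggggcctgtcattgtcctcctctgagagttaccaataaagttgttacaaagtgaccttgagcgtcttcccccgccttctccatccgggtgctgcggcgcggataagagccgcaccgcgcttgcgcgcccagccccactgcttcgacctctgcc

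**Figure D4:**
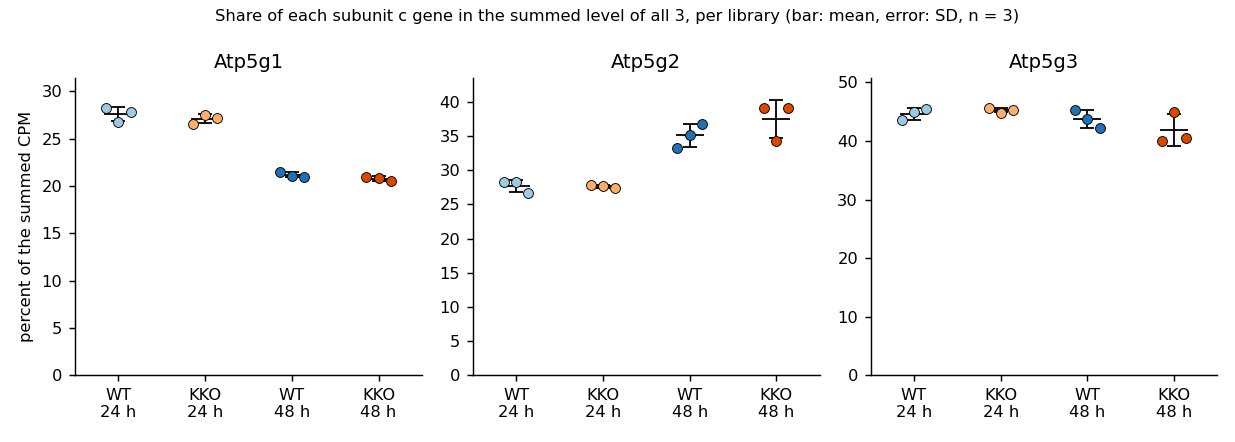
Share in percent (y axis from 0) of Atp5g1, Atp5g2 and Atp5g3 in the summed CPM of the 3 genes, per library, by genotype and time (x axis); the bar is the mean and the error bar the SD (n = 3). The Atp5g1 share is 26.5 to 28.2% in the 24 h libraries and 20.5 to 21.5% in the 48 h libraries.

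At 24 h the genotype made no called difference to the members. Of the 80 genes 0 were higher and 0 lower in KKO by edgeR's quasi-likelihood test, while 1.89% of all genes were higher and 0.432% lower. At an unadjusted p under 0.05 the count was also 0, and limma-voom and DESeq2 called 0 as well, with 1 adjusted p not given by DESeq2. The log2 difference was negative for 65 members, with a median of -0.03 beside 0.00 over all genes, and positive for 15. That split depended on single 24 h libraries. It was positive for 40 members (median 0.00) on leaving out KKO replicate 2, for 36 on leaving out WT replicate 2 and for 29 without WT replicate 3. Leaving out WT replicate 1 gave 4 (median -0.07) and KKO replicate 1 gave 6 (also -0.07). The smallest p among complexes I, II and III belonged to Ndufb6 (log2 difference -0.10, adjusted p = 0.614), Sdhc (-0.10, adjusted p = 0.685) and Uqcr11 (-0.08, adjusted p = 0.804). In complex V it was Atp5j (-0.10, adjusted p = 0.558). In complex IV it was Cox7a1, with 2 counts in WT and 9 in KKO libraries in all. Members deviated together within the 24 h groups: WT replicate 1 was above its group's mean for 4 of 80 members and KKO replicate 2 for 1, while KKO replicate 1 was above for 79. The median deviations of those libraries were -0.09, -0.09 and 0.08 on the log2 scale, larger than the median difference between genotypes.

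At 48 h, 9 members were higher in KKO than in WT and 0 lower, against 12.4% of all genes higher and 11.9% lower. As 9 of 80 is 11.2%, the upward share was near the background. The log2 difference was positive for 69 members, with a median of 0.11 beside 0.00 over all genes, and 23 had an unadjusted p under 0.05. The 3 KKO libraries were above the 3 WT libraries for 28 members and below them for 0, while over all genes tested these shares were 17.1% and 16.2%. The calls lay in complex I (7 of 36, all accessory) and complex III (2 of 9), and in complexes II, IV and V the count was 0 of 4, 14 and 17. The difference in call rate between complexes was not tested.

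Ndufb11 (chrX:20615326-20617619), an accessory subunit of the membrane arm, was at 67.8, 69.8 and 70.4 CPM in WT and 105, 76.3 and 95.5 in KKO at 48 h. Its KKO libraries were above WT, with replicate 2 nearest, and the difference was 1.33-fold (log2 0.41 ± 0.10 SE, adjusted p = 0.0114, edgeR). At 24 h the levels overlapped, at 50.7, 55.6 and 60.0 in WT and 58.3, 48.5 and 52.3 in KKO. Ndufv3 was 1.42-fold higher at 48 h (adjusted p = 0.0168), where KKO replicate 2, at 133 CPM, lay next to WT replicate 3, at 132 CPM. Ndufa6 (chr15:82350139-82354291), an accessory subunit that binds the acyl carrier protein, was at 43.8, 50.3 and 54.9 CPM in WT and 69.6, 56.0 and 67.6 in KKO. The groups did not overlap, and the difference was 1.30-fold (adjusted p = 0.0129). Ndufb3 was 1.20-fold, Ndufb10 1.17-fold, Ndufa2 1.14-fold and Ndufb9 1.13-fold higher, with adjusted p of 0.03, 0.0364, 0.0475 and 0.0425 in edgeR's test.

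Uqcr11 (chr10:80402997-80406821), the smallest subunit of complex III, was at 54.2, 59.6 and 59.4 CPM in WT and 57.8, 49.98 and 56.4 in KKO at 24 h. At 48 h it was at 50.7, 51.1 and 51.1 in WT and 64.2, 60.6 and 59.1 in KKO. The 48 h groups were apart and the 24 h groups overlapped. The 48 h difference was 1.20-fold (log2 0.27 ± 0.06 SE, adjusted p = 0.00835, edgeR). Over time the gene fell 1.13-fold in WT (adjusted p = 0.0215) and rose 1.12-fold in KKO (adjusted p = 0.0306). Uqcrq (chr11:53427922-53430831), which binds next to cytochrome b, was at 120.2, 118 and 123 CPM in WT and 156, 133 and 140.0 in KKO, a 1.19-fold difference between groups that did not overlap (adjusted p = 0.0135). The promoter window of Uqcr11 is shown because it was the member called in the test of the difference between the times, a call kept in 9 of 22 alternatives. It lies at chr10:80406772-80407071 on the minus strand (GRCm38.p6, RefSeq). Capitals mark matches to the ETS motif CCGGAAGT (bases 185 to 192) and, on the other strand, to the NRF1 motif (bases 246 to 254).
Uqcr11: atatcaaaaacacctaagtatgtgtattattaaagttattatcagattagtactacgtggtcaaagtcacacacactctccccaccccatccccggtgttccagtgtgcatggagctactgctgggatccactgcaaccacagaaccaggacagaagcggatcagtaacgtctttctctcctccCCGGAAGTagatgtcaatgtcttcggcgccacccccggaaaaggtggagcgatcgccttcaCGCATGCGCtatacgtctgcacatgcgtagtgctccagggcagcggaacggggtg

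In complex II the largest 48 h difference was for Sdhb (log2 0.10, adjusted p = 0.239). In complex IV the smallest p was for Cox4i1 (0.17, adjusted p = 0.0736), and Cox7a2l had a log2 difference of 0.21 (adjusted p = 0.0974). In complex V, Atp5sl differed by 0.29 (adjusted p = 0.0619), a gene named for similarity to Atp5s and not a structural subunit. Atp5s itself, known as coupling factor B and also not structural, had the largest log2 difference of complex V, 0.67 (adjusted p = 0.0723), from 26, 27 and 45 counts in WT and 58, 32 and 60 in KKO. Atp5d differed by 0.20 (adjusted p = 0.0723). None of these passed the test.

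The number of 48 h calls depended on single libraries. Leaving out KKO replicates 1, 2 and 3 of that time in turn gave 1, 20 and 3 calls, and leaving out WT replicates 1, 2 and 3 gave 3, 5 and 15. The share of all genes called moved as well, from 24.3% in the main test. It was 10.4%, 39.6% and 12.3% for the KKO omissions and 12.7%, 12.5% and 26.4% for the WT ones. Leaving out both libraries with mixed Xist and Y-linked signal gave 2 members and 10.4% of all genes. Uqcr11 was called in all 23 alternatives run, Ndufb11 in 20 and Ndufv3 in 17. KKO replicate 1 at 48 h was above its group's mean for 74 of 80 members, by a median of 0.06 on the log2 scale, and KKO replicate 2 for 26. KKO replicate 2 also had the highest B cell marker sum at 48 h, 32.3 CPM, and held Xist at 288 CPM without high Y-linked transcripts. WT replicate 3 at 48 h held Y-linked transcripts at 154 CPM, unlike the other WT libraries of that time. Without it, no WT library at 48 h had high Y-linked transcripts, and without KKO replicate 2 every KKO library had. Both omissions raised the count and made the genotypes differ more in Y-linked signal. The part of that signal in the rise was not tested. The B cell and CD8 marker sums were above WT in all 3 KKO libraries at 48 h. With the Y-linked share as covariate, chosen after seeing the data, 6 members were called at 48 h, beside 21.2% of all genes. The median log2 difference was then 0.075, beside 0.109 without it. The part of the marker sums in the differences was not tested.

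The genotype difference at 48 h minus that at 24 h was positive for 73 of 80 members, with a median of 0.14 (log2) beside -0.01 over all genes. Equally, the change over time was more positive in KKO, as a larger rise or a smaller fall, for these 73, which is 91.2% of members beside 48.3% of all genes. By edgeR's test of the interaction 1 member was called higher and 0 lower, with 1.46% and 2.72% of all genes as background, and 17 members had an unadjusted p under 0.05. The called gene was Uqcr11, at 0.34 ± 0.09 (log2, SE, adjusted p = 0.0424). Ndufa6 (0.51, adjusted p = 0.0507), Ndufb11 (0.48, adjusted p = 0.0766) and Ndufv3 (0.52, adjusted p = 0.136) had larger values that did not pass. The smallest p of complexes II, IV and V belonged to Sdhc (0.18, adjusted p = 0.286), Cox7a2l (0.36, adjusted p = 0.11) and Atp5j (0.19, adjusted p = 0.174), which also did not pass. The interaction count fell to 0 on leaving out any single 24 h library except WT replicate 1, which gave 2. Of the 48 h libraries, leaving out WT replicate 3 gave 3 calls and KKO replicate 2 gave 13, and each of the others gave 0. Of all genes, 6.13% and 23.8% were called on leaving out these 2, beside 4.18% in the main test. The share was 2.69% without WT replicate 1 at 24 h, and 1.06% to 2.36% for the omissions that gave 0.

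**Figure D5:**
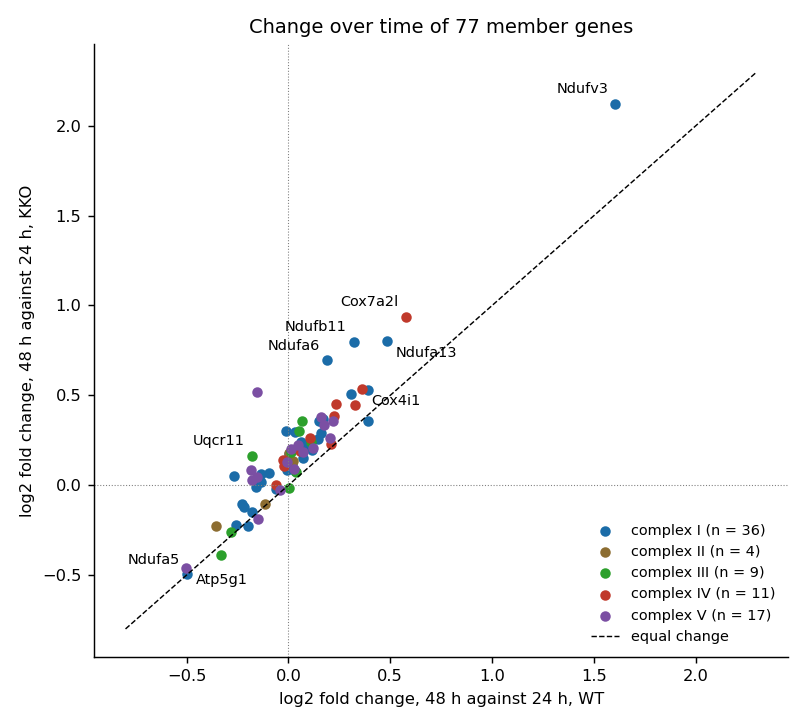
Log2 fold change from 24 h to 48 h in KKO (y axis) against that in WT (x axis) for 77 members, coloured by complex, with the line of equal change dashed. Of these genes 72 lie above the line, and Ndufv3 stands apart at 1.61 in WT and 2.12 in KKO.

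A search of promoter windows described how many members held each of 4 motifs. Of the 80 members 67 had a window in the RefSeq table. Each motif was searched as exact letters on both strands. The background was all 27025 genes with a window, not only the genes tested here. GCGCATGCG (NRF1, nuclear respiratory factor 1, a regulator of many mitochondrial genes) was found in 8 members, 11.9%, and in 1.95% of 27025 genes. They were Atp5g2, Atp5k, Atp5l, Cox6a1, Ndufa11, Ndufa8, Uqcr11 and Uqcrc1. AAGATGGCG (YY1) was found in 8 members, 11.9% beside 1.64% of genes, among them Ndufa9, Ndufc1, Ndufs4 and Atp5j. CCGGAAGT (ETS family, including GABPA) was found in 5, 7.46% beside 4.31%. TGACNNNGC, the core of the antioxidant response element to which NRF2 binds, was found in 9, 13.4% beside 14% of genes. Of the 9 members called in KKO at 48 h, 6 had a window, and among these Uqcr11 alone held one of the 4 motifs. Uqcr11 was counted under both NRF1 and ETS, Ndufa9 under YY1 and the antioxidant response element, and Ndufa11 under NRF1 and that element. A match describes letters in this window and is not a binding site.

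Genes that build or supply the complexes were counted in the same way over time, beside 31% of all genes higher and 29.7% lower in WT and 34.4% and 33.4% in KKO. How they differed from the subunits was not tested. Of 45 assembly factors 6 rose and 21 fell in WT (median log2 change -0.18), and 10 and 21 in KKO (-0.16). Factors that serve complex IV were called in both directions. Cox17, a copper chaperone, rose 1.98-fold in WT and 1.73-fold in KKO, Sco1, which passes copper to COX2, 1.98-fold and 1.77-fold, and Surf1 1.87-fold and 2.06-fold. Coa7 fell 1.76-fold and 2.24-fold, Cox10, which takes part in heme A synthesis, 1.63-fold and 1.77-fold, and Coa5 1.38-fold and 1.34-fold. Ndufaf4, an assembly factor of complex I, fell 2.55-fold and 3.26-fold. Of 77 mitochondrial ribosomal proteins, which translate the mitochondrially encoded subunits, 4 rose and 48 fell in WT and 6 rose and 43 fell in KKO. Of 11 import genes 0 rose and 9 fell in each genotype, among them the chaperonin Hspd1, which fell 1.81-fold in WT and 2.12-fold in KKO. Of 12 genes that maintain or transcribe mitochondrial DNA 0 rose and 8 fell in WT, and 1 rose and 9 fell in KKO, with Tfam among those that fell. Of 11 genes of coenzyme Q synthesis 0 rose and 7 fell in WT, and 2 rose and 8 fell in KKO. Of 7 genes that bring electrons in outside complex I, 3 rose and 2 fell in each genotype. Sqrdl, the sulfide oxidase that feeds coenzyme Q, rose 3.88-fold and 4.97-fold from 0.729 CPM in WT at 24 h. Of 6 further subunits and carriers 3 rose and 3 fell in WT, and 3 rose and 1 fell in KKO. Atpif1, the inhibitor of ATP synthase, rose 3.48-fold and 3.23-fold and Higd1a, a complex IV factor, 2.58-fold and 3.19-fold. Those that fell in WT were Ndufab1, Usmg5 and Cycs, which encodes cytochrome c. The mean of Cycs in WT was 224 CPM at 24 h and 179 CPM at 48 h.

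Between genotypes these lists had 0 calls at 24 h. At 48 h, of 8 regulators of mitochondrial genes 5 were lower in KKO and 0 higher, beside 11.9% and 12.4% of all genes. They were Myc (log2 -0.45, adjusted p = 0.00232), Gabpb1 (-0.25, adjusted p = 0.00619), Ppargc1b (-0.73, adjusted p = 0.0189), Pprc1 (-0.36, adjusted p = 0.0254) and Nrf1 (-0.21, adjusted p = 0.0449) in edgeR's test. Of the assembly factors 6 were lower, led by Ndufaf4 (-0.43), and 1 was higher, Uqcc2, a factor for complex III, at 0.28 (adjusted p = 0.0112). Coq9 was higher (0.33), and Coq2 and Coq10b lower. Higd1a (0.38) and Higd2a (0.28) were higher, and so was Sqrdl (0.93). Uqcc2 was also called for the difference between the times, at 0.39 (adjusted p = 0.0385), the gene called there among these lists.

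Reads of some members could also come from other genes. The exons of 28 members overlap those of another annotated gene, among them Ndufb11 with Rbm10, Ndufa13 with Tssk6, Cox4i1 with Emc8 and Ndufa3 with Tfpt, each on the opposite strand, and Ndufb9 with a gene model on its own strand. Whether counting used strand is not given in the sources used here. Estimated counts were not whole numbers for 10 members, Ndufa13, Ndufs1, Cyc1 and Sdha among them, so that reads were divided between similar sequences.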

How the data were processed

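Gene-level estimated counts (expected counts from RSEM, mouse build mm10, after FastQC, per the submitters' processing notes) were deposited by the authors as a single table. The design text of the study gives a human reference instead, but the symbols are mouse ones. Columns of 12 libraries matched sample labels, and 6 other columns of per-sample values matched none and were not used. Counts were rounded to whole numbers, and 1 row that names no gene (at most 2 counts in a library) was left out. Genes were filtered with filterByExpr, scaled by TMM and tested with edgeR 4.0.16 (quasi-likelihood, robust, R 4.3.3) in 1 model of 4 groups (8 residual degrees of freedom), adjusted over all 13196 genes. CPM are counts scaled to TMM-adjusted library totals. The procedure was tested on simulated data. The members and gene lists were chosen with earlier results of these data known. Named genes were, per complex or list and comparison, up to 3 called with the largest rise and 3 with the largest fall (for lists, up to 3 with the largest change), or the gene with the smallest p, besides fixed paralogue groups and the Sdh genes; further members were named after their values were seen. Deviations of same-numbered WT libraries had r of 0.126, 0.103 and 0.343 between times, and those of KKO ones 0.0287, 0.0852 and 0.0408. WT replicate 1 at 24 h had a higher r, 0.151, with replicate 2 at 48 h. KKO replicate 3 at 24 h had its highest r, 0.170, with replicate 1 at 48 h. In WT, replicates 1 and 2 were high in Xist and replicate 3 in Y-linked transcripts at both times. In KKO, replicate 1 held both at 24 h and Y-linked transcripts alone at 48 h, and replicate 3 the reverse. The values therefore do not establish a pairing by number, and the main test used none. The replicate block joined libraries by number, so its KKO time comparison joined libraries of unlike sex-linked signal. Alternatives used limma 3.58.1, DESeq2 1.42.0, other scalings and filters, omitted libraries and a replicate block. Promoter windows came from RefSeq and exon overlaps and transcript lengths from GENCODE (GRCm38). Intervals are exact (95%).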

Additional observations from a re-analysis of the deposited data

Results flagged for a closer look

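Uqcr11 differed in its genotype effect between the times by 0.344 (log2, 48 h minus 24 h, edgeR interaction test, adjusted p = 0.0424): the difference was -0.08 at 24 h and 0.27 at 48 h, and KKO libraries lay above WT in 3 of 3 at 48 h. Uqcc2, an assembly factor of complex III, differed in the same way by 0.388 (adjusted p = 0.0385), from -0.11 at 24 h to 0.28 at 48 h.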

How the results depend on the processing

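The number of members called for KKO against WT at 48 h, 9 as reported, was 14 with upper-quartile scaling, 5 with a replicate block, 2 without the 2 libraries of mixed Xist and Y-linked signal, 2 with only the 6 libraries compared, 1 at an adjusted p under 0.01, and 1 to 20 with one replicate left out. The number called for the interaction, 1 as reported, was 2 with RLE or upper-quartile scaling or a limit of 1 CPM in 6 libraries, 6 with the replicate block, 4 with DESeq2, 9 with the Y-linked share as covariate (chosen after seeing the data), 0 with limma-voom, without the 2 mixed libraries or at an adjusted p under 0.01, and 0 to 13 with one replicate left out. The share of all genes called moved too. At 48 h it was 24.3% as reported, 25.1% with upper-quartile scaling, 17.3% with the block and 10.4% without the mixed libraries. It was 12.1% with only the 6 libraries, 10.3% at 0.01, and 10.4% to 39.6% with one replicate left out. For the interaction it was 4.18% as reported, 7.06% with the block, 8.55% with DESeq2 and 10.8% with the covariate. With one replicate left out it was 1.06% to 23.8%. The cause was not tested. The block raised the WT time count from 33 to 38 and left the KKO one at 53, beside 54; same-numbered libraries of different genotypes did not deviate together. Counts over time stayed within 23 to 40 in WT and 42 to 57 in KKO over all alternatives, and the 24 h genotype count was 0 in each. Single values were followed for the members named by rule, 58 in all, each for a member in a comparison. Among these no direction of a called value reversed. A call was lost in 75 of the recomputed values and gained in 19, and 1225 stayed on their side of the threshold. These counts do not cover the remaining members. With 3 libraries a group and SE near 0.07 (log2), small differences of a few percent were not detectable.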
